A study of Mus musculus with 35 samples.

Results

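The elastic fibre and microfibril genes followed here are 10 of the 14174 genes measured in mouse aorta. They were chosen by symbol from the deposited table: elastin (Eln), the microfibril genes Fbn1, Mfap4, Mfap5, Emilin1 and Adamtsl2, the fibulins Fbln1 and Fbln5, and the crosslinking enzymes Lox and Loxl1. All 10 were found, and all 10 were among the 14157 genes that passed the filter on low values. The list was drawn up with earlier results of these data known, one of which was the Adamtsl2 level in EKO against WT aortas on chow at 6 weeks. That comparison, and the interactions built on it, are therefore described here with no test read from them. Other differences of Adamtsl2 that use those EKO libraries are descriptions too.

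The study sequenced total RNA of 35 whole aortas of C57BL/6 mice, in 12 groups of 3 libraries, except EKO/hA-I on chow at 6 weeks with 2. The genotypes were wild type (WT), Apoe knockout (EKO), and EKO/hA-I, which is EKO that overexpresses human apoA-I, a protein of high density lipoprotein, and so lacks mouse Apoe as well. From the age of 8 weeks the mice were fed chow (4RF21) or a Western diet (WD, TD.88137) for 6 or 22 weeks, which puts them at 14 or 30 weeks of age. Aortas were taken from the root down to the iliac bifurcation, after blood had been flushed out and the surrounding fat trimmed, so every library mixes smooth muscle, adventitia, endothelium and, where present, lesion. The promoter and cell type that drive the human apoA-I are not given in the sources used here.

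Elastic fibres give the aorta its recoil. Smooth muscle cells and fibroblasts secrete tropoelastin, the product of Eln, which is laid onto a scaffold of fibrillin microfibrils and joined by lysyl oxidases, with fibulins, emilins and microfibril-associated proteins helping it to assemble. Most elastin is laid down early in life and turns over slowly, and in atherosclerosis the fibres are cut by proteases of macrophages and other cells. Apoe knockout mice develop atherosclerotic lesions, faster on a Western diet.

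Values are the normalised signal the authors deposited, which can be compared between libraries for 1 gene but not between genes, since it is not per length. Differences are given as log2(value + 1) ± standard error, and adjusted p is that of limma over all 14157 genes, with a threshold of 0.05. Shares of all genes called are at that adjusted threshold. Where members are counted at an unadjusted p under 0.05, no share of all genes at that measure is given, so the 2 are not to be compared. Apoe was 416 to 1276 in WT libraries and 5.37 to 29.7 in the others, which holds for WT WD 22 weeks replicate 3 too (540.4), a library titled WT whose genotype tag reads EKO. The reads behind a library, inferred from the steps between low values, were 6.85e+06 to 2.53e+07. Marker signal of other tissue differed between libraries: the summed signal of 6 brown adipocyte genes ran from 1247 to 13591, of 6 skeletal muscle genes from 5.07 to 3471, and of 8 contractile smooth muscle genes, the defining markers of the aortic media, from 3999 to 37812. EKO chow 6 weeks replicate 1 and EKO/hA-I chow 6 weeks replicate 2 stood apart in 4 sympathetic nerve genes. Their summed signal was 967 and 1328, against a median of 49.8 over all libraries. Some results that rest on these libraries are given with and without them, and others only with them. WT chow 22 weeks replicate 1 was the highest in summed cardiac muscle genes (4790.3, median 35.5). Next came EKO/hA-I WD 6 weeks replicate 1 (2730) and EKO/hA-I WD 22 weeks replicate 2 (1147). In tissue like this, fewer cells of a type and less RNA per cell cannot be told apart.

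**Figure D1:**
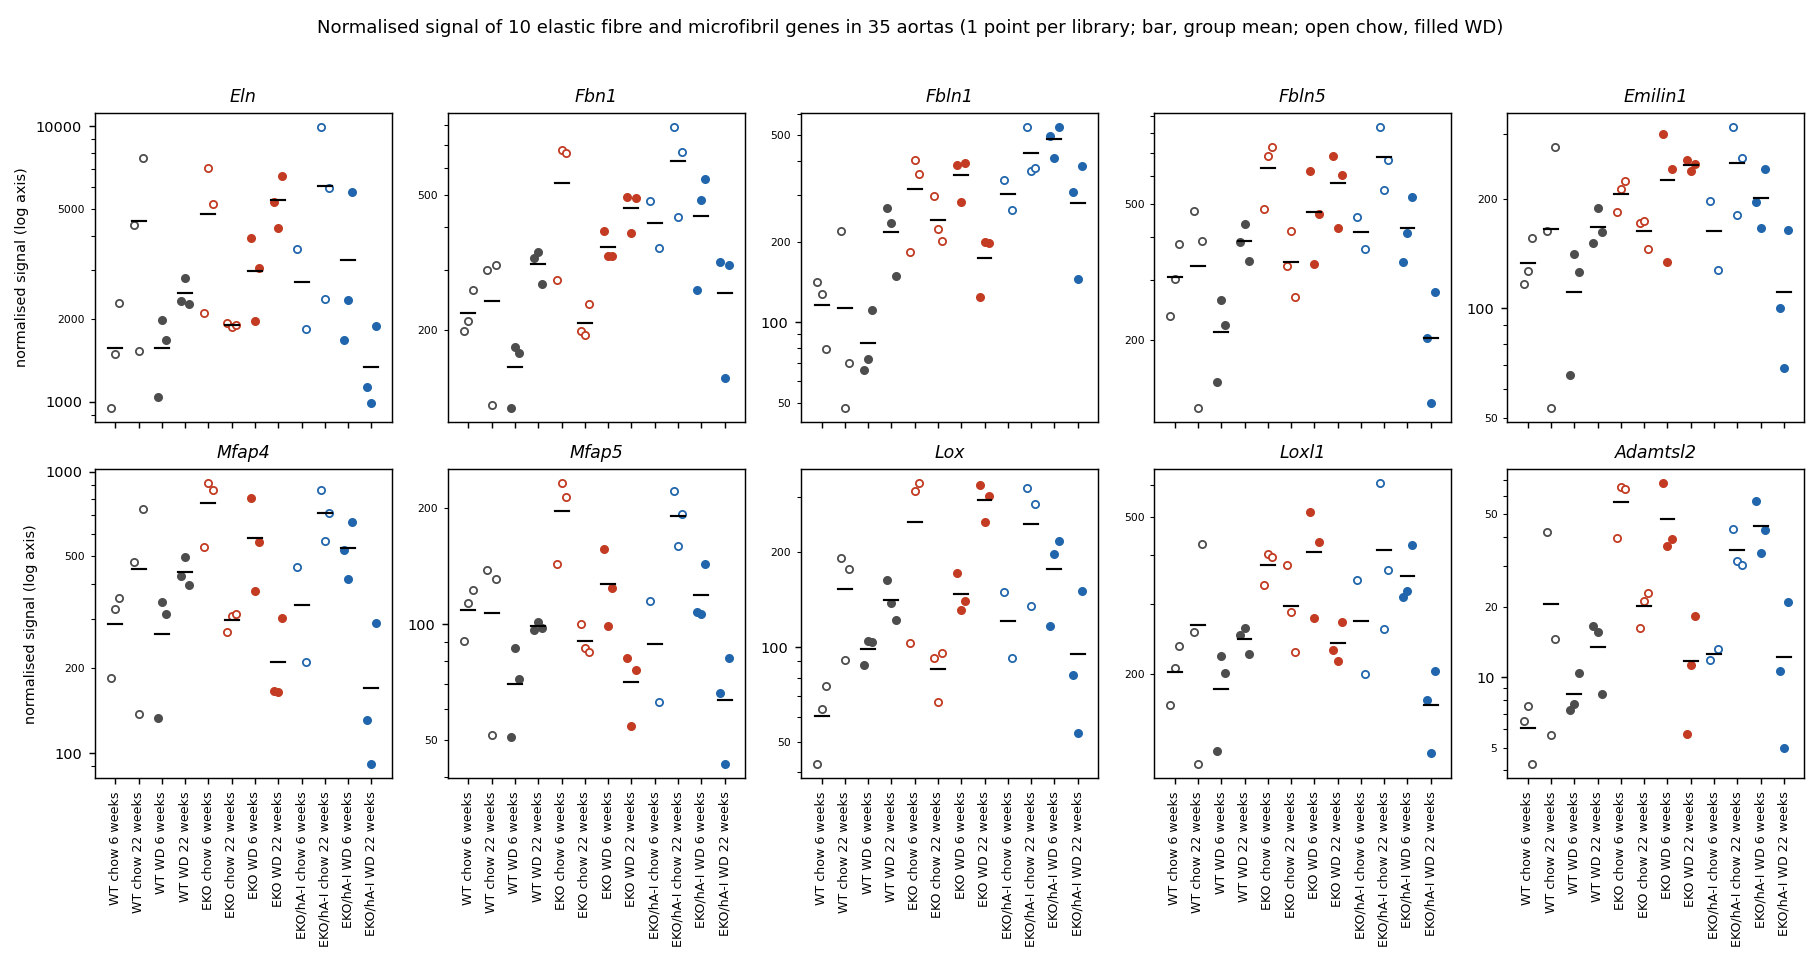
Normalised signal (vertical log axis) of the 10 genes in each of 35 aortas, by group of genotype, diet and weeks on diet, with open points for chow, filled points for WD and a bar at the group mean. Eln and Lox were high in EKO on WD at 22 weeks (Eln 4270.1 to 6618), where Mfap4 (164 to 303) and Adamtsl2 (5.70 to 18.4) were below their level in EKO on WD at 6 weeks (376 to 804 and 36.6 to 68.03).

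Eln, which codes for the elastic protein itself, ran from 950.1 in WT chow 6 weeks replicate 1 to 9937 in EKO/hA-I chow 22 weeks replicate 1. In WT it was 950.1, 1489 and 2285 on chow and 1042, 1979 and 1679 on WD at 6 weeks, and 4393, 1527 and 7648 on chow and 2328, 2828 and 2274 on WD at 22 weeks. The chow group at 22 weeks was the most scattered of these, its replicate 2 lying among the 6-week values and its replicate 3 far above them. EKO libraries held 2105, 7047 and 5221 on chow and 3947, 1967 and 3074 on WD at 6 weeks, then 1934, 1875 and 1899.8 on chow and 5313, 4270.1 and 6618 on WD at 22 weeks. At 22 weeks the 2 diets did not overlap in EKO, every WD library being above every chow library. Here and for the genes below, such separation is a description, and with 3 libraries a group it can be common. Between EKO and WT on WD at 22 weeks 40.5% of all genes lay apart. The share for the EKO diets at 22 weeks, or for 22 and 6 weeks in EKO on WD, is not given. EKO/hA-I libraries went the other way, with 9937, 2355 and 5952 on chow and 1136, 992 and 1892 on WD at 22 weeks, after 3595 and 1834 and 1684, 2349 and 5796 at 6 weeks.

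Fbn1, fibrillin-1, the protein of the microfibril backbone, had its highest group mean in EKO/hA-I chow 22 weeks, 629 ± 184 (SD, n = 3), and its lowest in WT WD 6 weeks, 156 ± 33.03 (SD, n = 3). In EKO at 22 weeks it was 198, 193 and 238 on chow and 491, 386 and 488 on WD, in EKO/hA-I 789.9, 429 and 669 and 316, 144 and 309.6. The diets lay apart in both genotypes, WD above chow in EKO and below it in EKO/hA-I. Mfap4, a glycoprotein that binds elastin and fibrillin, was 804, 376 and 562 in EKO on WD at 6 weeks and 166, 164 and 303 at 22 weeks. Mfap5, a microfibril-associated glycoprotein, was 157, 98.8 and 124 and 81.6, 54.2 and 75.9 in the same 2 groups. Neither Mfap4 nor Mfap5 overlapped between these 2 time points, the later one being the lower. In WT on WD, Mfap4 was 133, 346 and 313 at 6 weeks and 427, 498 and 397 at 22 weeks, so there the later values were the higher. Emilin1, a glycoprotein at the border of elastin and microfibrils, had group means from 111 (WT WD 6 weeks) to 251 (EKO/hA-I chow 22 weeks), with EKO WD 22 weeks at 247 ± 8.59 (SD, n = 3). Its 3 libraries (255, 238 and 249) lay above those of WT on WD at that time (151, 188 and 162).

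Adamtsl2 codes for a secreted protein that binds fibrillin microfibrils and has no protease domain, and it had the widest range of the 10 genes, 16.1-fold from 4.24 to 68.03. WT aortas held 6.51, 7.51 and 4.24 on chow and 7.28, 7.72 and 10.5 on WD at 6 weeks. EKO aortas of that age held 39.6, 65.8 and 64.04 on chow and 68.03, 36.6 and 39.3 on WD, all 6 above all 6 WT values. At 22 weeks EKO values were 16.2, 21.3 and 22.97 on chow and 5.70, 11.3 and 18.4 on WD, and WT values 41.96, 5.64 and 14.6 and 16.6, 15.7 and 8.47, so the genotypes overlapped on both diets. EKO/hA-I on chow at 6 weeks held 11.9 and 13.2, below every EKO chow library of that age, and 56.9, 34.3 and 42.7 on WD. Its 22-week values were 43.3, 31.4 and 30.4 on chow and 10.6, 4.99 and 20.96 on WD, again with no overlap between the diets.

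Fbln1, a fibulin of elastic fibres and basement membranes, was lower in WT at 6 weeks on both diets. WT libraries held 141, 127 and 79.2 on chow and 66.5, 72.96 and 111 on WD at 6 weeks, against 183, 404 and 358 and 386, 282 and 395 in EKO and 341 and 263 and 499, 412 and 537 in EKO/hA-I. No WT library of that age reached the lowest EKO or EKO/hA-I value. At 22 weeks on chow, WT held 219.5, 47.6 and 70.4, EKO 296, 224 and 201 and EKO/hA-I 536, 369 and 379, and EKO/hA-I lay above both others. At 22 weeks on WD the 3 genotypes overlapped, with 268, 236 and 148 in WT, 124, 199 and 198 in EKO and 308, 145 and 383 in EKO/hA-I. Fbln5, a fibulin that tethers elastin and Loxl1 during assembly, had group means from 204 (EKO/hA-I WD 22 weeks) to 685 (EKO/hA-I chow 22 weeks), the 2 ends lying in 1 genotype and differing only in diet. In EKO at 22 weeks it was 329, 416 and 268 on chow and 689, 424 and 607 on WD, and in WT 475, 127 and 388 and 386, 437 and 341. Every EKO library on WD was above every EKO library on chow, while in WT the diets overlapped, replicate 2 on chow being the lowest of all 35 libraries.

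Lox, lysyl oxidase, which starts the crosslinks of elastin and collagen, was 328, 249.8 and 302 in EKO on WD at 22 weeks and 91.99, 67.1 and 95.6 on chow, with no overlap. Its values in WT were 42.4, 63.5 and 75.1 on chow at 6 weeks and 192, 90.8 and 177 at 22 weeks. Every one of those 22-week libraries was above every 6-week one. EKO on chow at 6 weeks held 103, 314 and 331, with replicate 1, one of the 2 libraries of high nerve genes, well below the other 2. EKO/hA-I at 22 weeks held 321, 135 and 284 on chow and 81.6, 53.5 and 150.2 on WD, and these overlapped. Loxl1, its elastin-directed relative, had group means from 167 (EKO/hA-I WD 22 weeks) to 411 (EKO/hA-I chow 22 weeks). In EKO on WD it was 513, 276 and 430.4 at 6 weeks and 229.8, 215 and 271 at 22 weeks, with the later libraries all below the earlier.

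The 10 genes moved together only in part. Over the 35 libraries Pearson's r of log2(value + 1) between 2 of them ran from 0.35 (Eln and Fbln1) to 0.92 (Mfap4 and Mfap5), with a median of 0.71 over 45 pairs; with the group means taken out the range was 0.41 to 0.93. These are descriptions: the points share libraries, depth and tissue make-up, and no test was made. Mfap4 and Mfap5 followed the mean of the contractile smooth muscle genes most closely of the marker lists (r 0.91 and 0.86). Fbln1 followed the adventitial fibroblast genes (r 0.89), and so, more loosely, did Adamtsl2 (0.64). Eln went with Lox (r 0.89) and with the mean of 12 genes of TGF-beta signalling (0.84), a pathway that microfibrils help to hold in check, while its r with the contractile genes was 0.53. With the group means taken out the latter 2 were near each other, 0.79 and 0.77. All 10 had a negative r with the brown adipocyte genes, from -0.85 (Fbln5) to -0.38 (Adamtsl2).

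**Figure D2:**
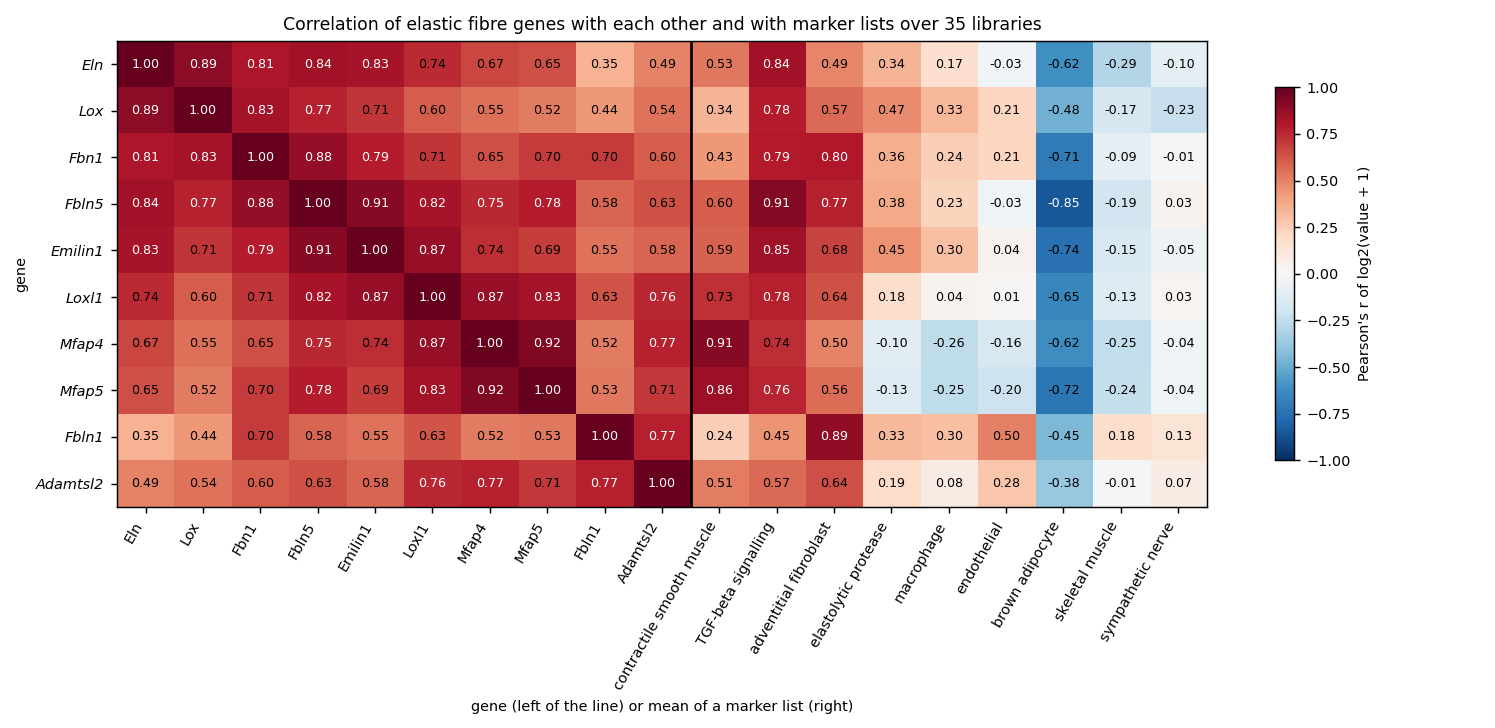
Pearson's r of log2(value + 1) over 35 libraries between the 10 genes (left of the line) and between each gene and the mean of a marker list (right). Mfap4 and Mfap5 stand out with the contractile smooth muscle genes (0.91 and 0.86), Fbln1 with the fibroblast genes (0.89), and the brown adipocyte column is negative throughout.

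Outside the list, of 8909 genes with a mean log2 value of at least 4, those whose level over the 35 libraries was most like that of Eln were Col5a1 (0.92), Prrc1 (0.91), Rhoc (0.91), Ckap4 (0.91) and C1qtnf6 (0.89), with r in brackets; Col5a1 codes for a collagen V chain. The 5 most like Adamtsl2 were Htra3 (0.81), Pi16 (0.78), Angptl7 (0.78), Pdgfrl (0.77) and Car8 (0.76); Htra3 codes for a secreted serine protease, and Pi16 is a fibroblast gene that is also on the fibroblast marker list used here.

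Promoters are shown for 4 of the genes, as 2 pairs whose levels went together: Adamtsl2 with Fbln1 (r 0.77) and Fbn1 with Fbln5 (r 0.88). RefSeq promoters of the GRCm38.p6 build were searched with a chromosome left out, and those searched held 5 of the 10 genes. The 250 bases before the start are printed 5′ to 3′ on the gene's strand. Of these 5, Fbln5 and Emilin1 had the highest r (0.91), and the Emilin1 window is not shown. Where a gene had 2 starts, the window with more GC boxes is shown. Capitals mark the GC box (GGGCGG, or its reverse complement) and the TATA box (TATAAA, or its reverse complement), which do not overlap here.
Adamtsl2, chr2:27079129-27079378, plus strand: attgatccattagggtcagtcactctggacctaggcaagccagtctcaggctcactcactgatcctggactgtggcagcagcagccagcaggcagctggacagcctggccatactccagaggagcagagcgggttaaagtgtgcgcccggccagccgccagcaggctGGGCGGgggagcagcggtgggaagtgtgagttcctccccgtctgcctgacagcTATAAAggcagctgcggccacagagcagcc
Fbln1, chr15:85205758-85206007, plus strand: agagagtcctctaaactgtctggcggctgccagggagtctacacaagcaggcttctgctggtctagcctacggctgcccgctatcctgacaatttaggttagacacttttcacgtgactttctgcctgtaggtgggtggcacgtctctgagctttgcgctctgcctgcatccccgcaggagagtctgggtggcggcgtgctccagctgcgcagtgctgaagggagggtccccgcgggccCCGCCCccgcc
Fbn1, chr2:125506439-125506688, minus strand: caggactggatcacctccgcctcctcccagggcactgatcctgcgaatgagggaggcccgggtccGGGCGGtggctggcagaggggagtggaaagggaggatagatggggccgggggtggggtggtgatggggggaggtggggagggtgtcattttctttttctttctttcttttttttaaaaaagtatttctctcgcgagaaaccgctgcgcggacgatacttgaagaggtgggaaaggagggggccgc
Fbln5, chr12:101819120-101819369, minus strand: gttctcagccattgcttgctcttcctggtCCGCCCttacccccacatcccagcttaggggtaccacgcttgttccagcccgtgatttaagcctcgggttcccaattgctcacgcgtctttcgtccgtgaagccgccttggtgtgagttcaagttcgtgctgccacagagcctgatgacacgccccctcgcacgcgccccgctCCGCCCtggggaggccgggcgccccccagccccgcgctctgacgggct
The Adamtsl2 window held a GC box whose first base is 83 bases before the start and a TATA box 30 bases before it, and the Fbln1 window a GC box 11 bases before. In the Fbn1 window the GC box began 185 bases before the start, and in that of Fbln5 there were 2, at 221 and 48 bases. Of the 7 windows in the table for these 10 genes, 4 held a GC box, the 4 shown; the other windows of Fbln1 and Fbln5 and that of Emilin1 held none. A GC box was in 32.7% of the 32851 RefSeq promoters searched, all of this length, and a TATA box in 12.4%, on both strands. The CArG box, the element that serum response factor binds in many smooth muscle genes, was in 1.47% of all promoters and in none of these 4 windows; a match or its absence in so short a window is a description of its letters only.

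Loss of Apoe on chow, 6 weeks: the 10 genes all had higher means in EKO than in WT. This is the comparison known when the list was drawn up, so its values are given as a description. Adamtsl2 averaged 56.5 ± 14.7 (SD, n = 3) against 6.08 ± 1.68 (SD, n = 3). Lox averaged 249.5 ± 127 (SD, n = 3) against 60.4 ± 16.6 (SD, n = 3), and Eln 4791 ± 2499 (SD, n = 3) against 1575 ± 672 (SD, n = 3). The log2 differences ran from 0.63 (Emilin1) to 3.01 (Adamtsl2), with a median of 1.28 against 0.01 over all genes. For 9 of 10 every EKO library was above every WT library, as it was for 12.6% of all genes, while 3 were past the threshold, with 2.27% of all genes higher and past it. Nothing is read from these counts. EKO replicate 1, the library of high nerve genes, was the lowest EKO library for 10 of the 10 genes, and without it and the other such library the difference of Eln was 2.04 and of Lox 2.44. The contractile smooth muscle sum was 24909, 28761 and 30875 in EKO and 9665, 17801 and 25979.8 in WT, the brown adipocyte sum 1715, 1861 and 1419 and 5556, 3652 and 2021, and their part in the result was not tested.

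Loss of Apoe on WD, 6 weeks: in other aortas than those above, Fbn1, Fbln1 and Adamtsl2 rose in EKO. Adamtsl2 averaged 47.97 ± 17.4 (SD, n = 3) against 8.49 ± 1.73 (SD, n = 3) (2.33 ± 0.48, adjusted p = 0.0067, limma). Fbln1 averaged 354 ± 63.05 (SD, n = 3) against 83.5 ± 24.1 (SD, n = 3) (2.09 ± 0.41, adjusted p = 0.0052). Fbn1 averaged 349.9 ± 35.6 (SD, n = 3) against 156 ± 33.03 (SD, n = 3) (1.18 ± 0.36, adjusted p = 0.0499). The 3 called genes are set against 3.94% of all genes that were higher and called. All 10 differences were positive, with a median of 1.14 against 0.01 over all genes, and for 8 of 10 the groups did not overlap, against 14.1% of all genes that lay apart and higher. The Eln difference was 0.93 ± 0.55, adjusted p = 0.32. Of the 8 adventitial fibroblast genes 7 rose as well, their summed signal being 3437, 2535 and 2549 in EKO and 1077, 1095 and 1500.4 in WT. Fbln1 per 1000 of that sum was 111 to 155 in EKO and 61.7 to 73.99 in WT, and Adamtsl2 14.5 to 19.8 and 6.76 to 7.05, so both were higher in every EKO library relative to the fibroblast genes too. In a fit of these 6 libraries alone no member passed, and without WT replicate 1, the library with the highest brown adipocyte sum (13591), none did in the fit of all groups. The Fbn1 call also ended with the tissue terms, a pseudocount of 5 and the term for libraries without Y-linked transcripts. The brown adipocyte sum was 3120.00 to 7866 in EKO and 6537 to 13591 in WT. Of the calls, that of Fbn1 ended without WT replicates 1, 2 or 3 or EKO replicates 1, 2 or 3 (adjusted p up to 0.26), that of Fbln1 ended without WT replicate 1 (adjusted p = 0.053) and that of Adamtsl2 ended without WT replicate 1 or EKO replicate 1 (adjusted p up to 0.062).

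Loss of Apoe, 22 weeks: on chow Fbln1 rose, 240.4 ± 49.8 (SD, n = 3) against 113 ± 93.4 (SD, n = 3) (1.38 ± 0.41, adjusted p = 0.024, limma), and no other member passed, with 7.35% of all genes higher and called. Eln was -0.97 ± 0.55, adjusted p = 0.25 and Adamtsl2 0.35 ± 0.48, adjusted p = 0.66. The Fbln1 call ended without WT replicate 2 or 3 or EKO replicate 1 (adjusted p up to 0.13), and no member passed in a fit of these 6 libraries alone. On WD none of the 10 passed limma's threshold, and 2 had an unadjusted p under 0.05, while 22% of all genes were called. Lox was 1.05 ± 0.40, adjusted p = 0.058, Eln 1.11 ± 0.55, adjusted p = 0.16 and Mfap4 -1.11 ± 0.48, adjusted p = 0.1. In 6 of 10 genes the groups did not overlap, 4 higher and 2 lower in EKO, against 40.5% of all genes. A fit of these 6 libraries alone, with its smaller spread, called Eln (1.11, adjusted p = 0.02), Lox (1.05, adjusted p = 0.0044), Emilin1 (0.57, adjusted p = 0.018) and Mfap4 (-1.11, adjusted p = 0.023). With the brown adipocyte and skeletal muscle terms Mfap4 (-1.30, adjusted p = 0.0091) and Mfap5 (-0.63, adjusted p = 0.023) were called, both lower in EKO.

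**Figure D3:**
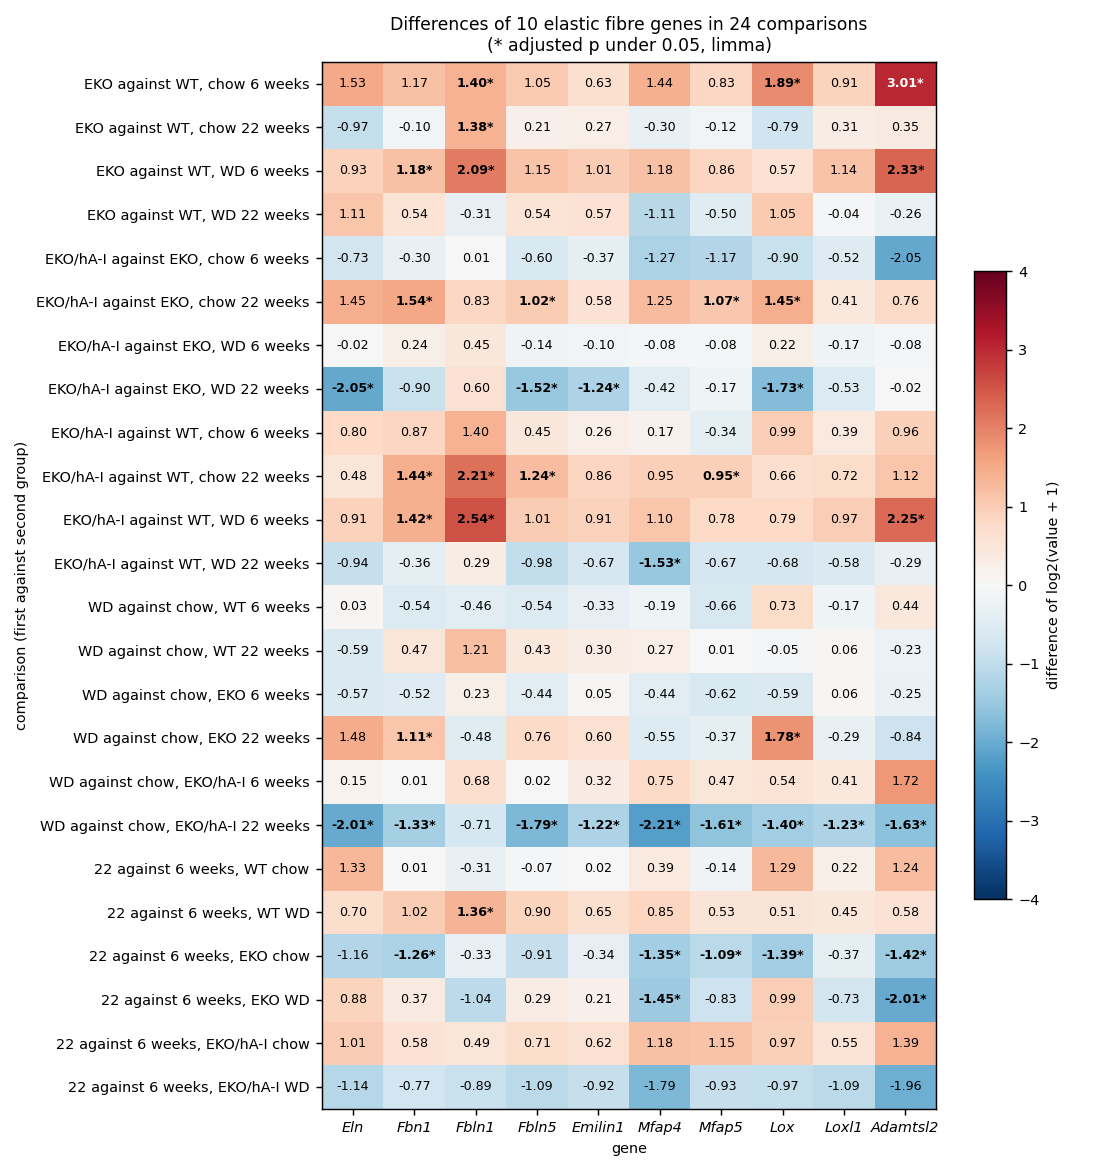
Differences of log2(value + 1) of the 10 genes (columns) in 24 comparisons of 2 groups (rows), red for higher and blue for lower in the group named first, with an asterisk where limma's adjusted p over all genes was under 0.05. The row of EKO/hA-I on WD against chow at 22 weeks is blue across all genes, with 9 of 10 called, and the row of EKO against WT after 22 weeks of WD holds both signs and no call.

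EKO on WD at 22 weeks, the group with the highest macrophage signal, stood apart in how much of some members, Eln and Lox among them, it held for its smooth muscle signal. Its contractile smooth muscle sum was 9856, 5830.1 and 9212, against 15301, 25249 and 23041 in WT of that diet and age, while Eln was 5313, 4270.1 and 6618 against 2328, 2828 and 2274. Per 1000 of the contractile sum, Eln was 539 to 732 in these 3 libraries and 83.7 to 309 in the other 32. Lox per 1000 was 32.8 to 42.8 here and 2.89 to 15.6 elsewhere. No other library reached the lowest of these 3 for either gene. EKO/hA-I on WD at 22 weeks also had low contractile sums (6021, 3998.5 and 9633), and its ratios are among those of the other 32. The part of the low contractile sum in these ratios was not tested. Eln and Lox were not the only members to stand high. Fbln5 (689, 424 and 607, against 386, 437 and 341 in WT) and Emilin1 (255, 238 and 249, against 151, 188 and 162) were also high for the contractile sum here. Mfap4 per 1000 was 16.8 to 32.9, within the 13.7 to 33.5 of the others, and Mfap5 8.24 to 9.29, within 3.48 to 10.98. Fbln1 per 1000 of the fibroblast sum was 29.9 to 59.99, against 49.3 to 155 elsewhere, so it lay at the low end. The same libraries had macrophage sums of 5822, 4904 and 7534, against 358, 503 and 238 in WT, and their part in these ratios was not tested. This grouping of the members was noticed after the values were seen and is given as a description.

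**Figure D4:**
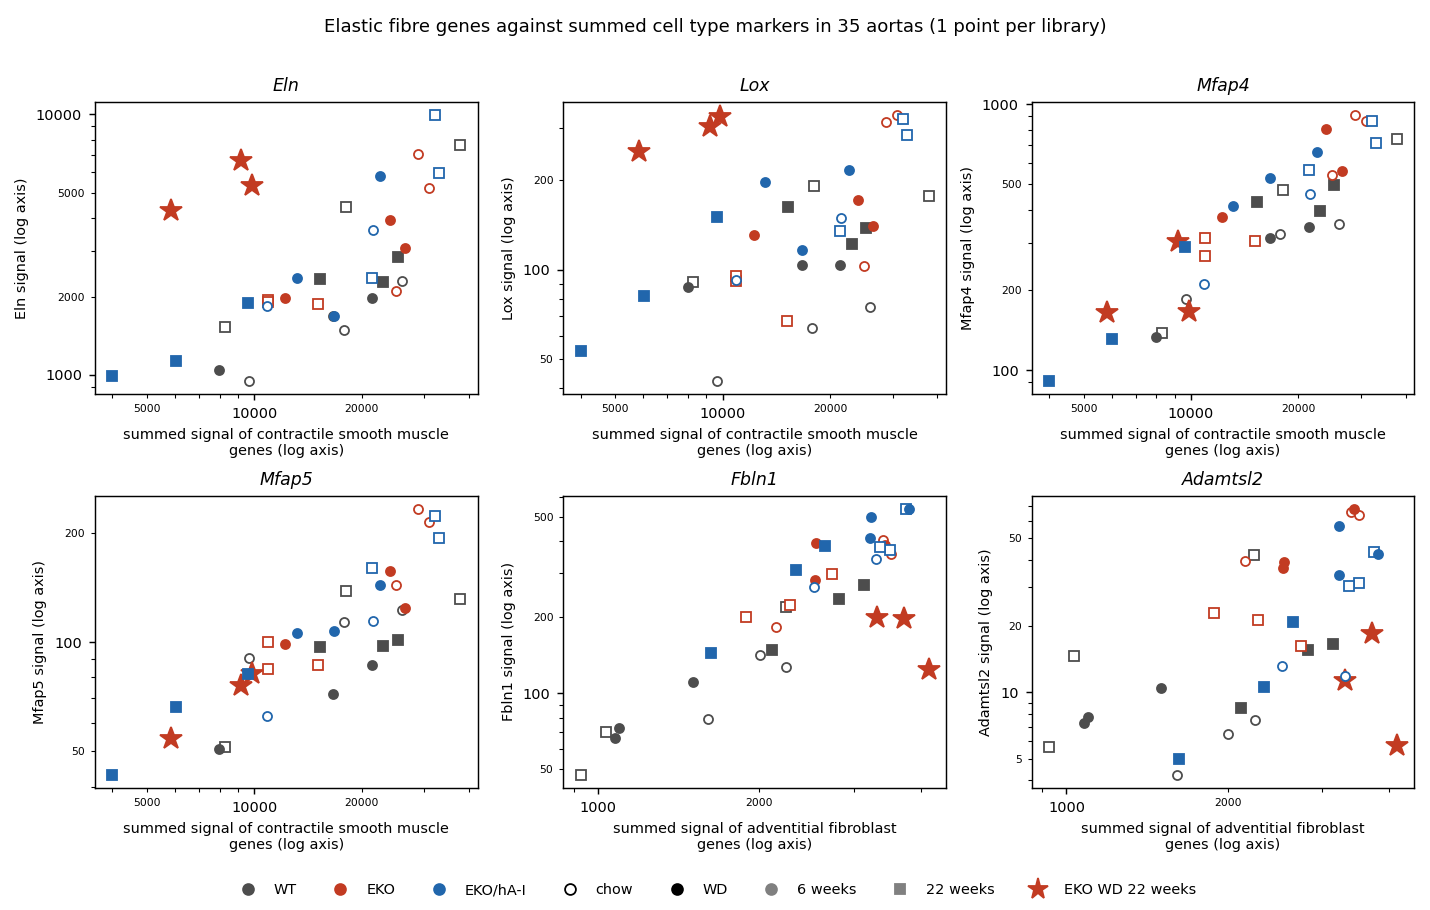
Signal of 6 genes against the summed signal of contractile smooth muscle or adventitial fibroblast genes in 35 libraries, all axes logarithmic, with stars for EKO on WD at 22 weeks. The 3 stars stand above all other libraries of like smooth muscle signal for Eln and Lox, lie among them for Mfap4 and Mfap5, and lie at the lower edge for Fbln1 against fibroblast signal.

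Human apoA-I in EKO mice, 22 weeks on WD: Eln, Lox, Fbln5 and Emilin1 fell. Eln averaged 1339.9 ± 484 (SD, n = 3) in EKO/hA-I against 5400.3 ± 1176 (SD, n = 3) in EKO (-2.05 ± 0.55, adjusted p = 0.011, limma). Lox averaged 95.1 ± 49.8 (SD, n = 3) against 293 ± 39.6 (SD, n = 3) (-1.73 ± 0.40, adjusted p = 0.0028). Fbln5, the elastin-tethering fibulin, averaged 204 ± 72.2 (SD, n = 3) against 573 ± 136 (SD, n = 3) (-1.52 ± 0.36, adjusted p = 0.0035). Emilin1 averaged 111 ± 48.9 (SD, n = 3) against 247 ± 8.59 (SD, n = 3) (-1.24 ± 0.40, adjusted p = 0.03). The 4 called are set against 12.9% of all genes that were lower and called, and the 6 of 10 with no overlap against 22.8%. Mfap4 (-0.42 ± 0.48, adjusted p = 0.59), Mfap5 (-0.17 ± 0.30, adjusted p = 0.74) and Adamtsl2 (-0.02 ± 0.48, adjusted p = 0.98) did not pass. The contractile smooth muscle sum was 3998 to 9633 with human apoA-I and 5830.1 to 9856 in EKO, the brown adipocyte sum 5474 to 7008 and 1247 to 4778, and the skeletal muscle sum 806 to 2699.7 and 21.5 to 106. The macrophage sum was 620.3 to 1618 and 4904 to 7534 and the fibroblast sum 1623 to 2649 and 3311 to 4138, both lower with human apoA-I and apart, and their part in the result was not tested. With terms for the brown adipocyte and skeletal muscle lists in the fit no member was called (Eln -0.48 ± 0.59, Lox -0.83 ± 0.49). Of the calls, that of Emilin1 ended without EKO replicates 1 or 3 or EKO/hA-I replicates 1 or 2 (adjusted p up to 0.16).

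Human apoA-I in EKO mice on chow, 22 weeks: the direction was the opposite, and Fbn1, Fbln5, Mfap5 and Lox rose. Fbn1 averaged 629 ± 184 (SD, n = 3) against 209.6 ± 24.7 (SD, n = 3) (1.54 ± 0.36, adjusted p = 0.0033, limma). Mfap5 averaged 192 ± 31.2 (SD, n = 3) against 90.4 ± 8.59 (SD, n = 3) (1.07 ± 0.30, adjusted p = 0.011). Lox averaged 247 ± 98.6 (SD, n = 3) against 84.9 ± 15.5 (SD, n = 3) (1.45 ± 0.40, adjusted p = 0.0091). Fbln5 averaged 685 ± 143 (SD, n = 3) against 338 ± 74.2 (SD, n = 3) (1.02 ± 0.36, adjusted p = 0.034). Of all genes 13.7% were higher and called. The groups lay apart and higher for 9 of 10, against 22.2% of all genes, and Eln, at 1.45 ± 0.55, adjusted p = 0.051, was just short of the threshold. The contractile sum was 21369.6 to 32969 with human apoA-I and 10923 to 15109 in EKO, and the brown adipocyte sum 1527 to 1882 and 3801 to 6935. With terms for brown adipocytes and skeletal muscle no member was called (Fbn1 1.01 ± 0.37). Of the calls, that of Fbln5 ended without EKO replicates 1 or 3 or EKO/hA-I replicates 1 or 3 (adjusted p up to 0.13) and that of Lox ended without EKO/hA-I replicate 3 (adjusted p = 0.0502).

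Human apoA-I at 6 weeks: no member passed on either diet, Adamtsl2 on chow being left out as a description. On chow 0.0777% of all genes were called, and members at an unadjusted p are not counted, since Adamtsl2 would be among them. Adamtsl2 was 11.9 and 13.2 against 39.6, 65.8 and 64.04, a difference of -2.05 ± 0.54. The high EKO values were known when the list was drawn up, so this is a description and no test is read from it. Each group holds 1 of the libraries with high nerve genes, and without these 2 libraries the Adamtsl2 difference was -2.35. On WD none had an unadjusted p under 0.05, with 0.0706% of all genes called, and the differences lay between -0.17 and 0.45. The 95% interval of the Eln difference, -1.16 to 1.12, is wide.

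EKO/hA-I against WT, which shares its libraries with the comparisons above, is set beside them. On WD at 6 weeks Fbln1 (2.54 ± 0.41, adjusted p = 5.7e-04, limma), Adamtsl2 (2.25 ± 0.48, adjusted p = 0.0039) and Fbn1 (1.42 ± 0.36, adjusted p = 0.0099) rose, where EKO against the same WT libraries gave 2.09, 2.33 and 1.18. Of all genes 8% were higher and called, and 9 of 10 members lay apart and higher against 20.1%. The fibroblast sum was 3223 to 3808 with human apoA-I and 1077 to 1500.4 in WT, and the brown adipocyte sum 2077 to 4983 and 6537 to 13591. With the tissue terms Fbln1 was kept (2.29, adjusted p = 0.021), while Adamtsl2 (1.93 ± 0.59) and Fbn1 (1.06 ± 0.40) were not called. On chow at 22 weeks Fbln1 (2.21 ± 0.41, adjusted p = 0.0013), Fbn1 (1.44 ± 0.36, adjusted p = 0.01), Fbln5 (1.24 ± 0.36, adjusted p = 0.024) and Mfap5 (0.95 ± 0.30, adjusted p = 0.037) rose, with 6.51% of all genes higher and called. Without WT replicate 2, which had the lowest value of 10 of the 10 genes in its group, Fbln1 alone was called. No call on chow at 22 weeks, Fbln1 included (1.75 ± 0.50), was kept with the brown adipocyte and skeletal muscle terms or in a fit of these 6 libraries alone. Of these calls, that of Fbn1 ended without WT replicate 2 (adjusted p = 0.096), that of Fbln5 ended without WT replicate 2 or EKO/hA-I replicates 1 or 3 (adjusted p up to 0.23) and that of Mfap5 ended without WT replicate 2 or EKO/hA-I replicates 1 or 3 (adjusted p up to 0.31). Of those on WD at 6 weeks, that of Fbn1 ended without WT replicate 1 or EKO/hA-I replicate 3 (adjusted p up to 0.074). On WD at 22 weeks Mfap4 alone fell (-1.53 ± 0.48, adjusted p = 0.03, limma), in a background of 9.46% of all genes lower and called. That call ended in 5 of 6 fits that left out 1 library (WT replicates 1, 2 and 3 and EKO/hA-I replicates 1 and 2, adjusted p up to 0.17). It also ended with the tissue terms. The contractile sum was 3998.5 to 9633 with human apoA-I and 15301 to 25249 in WT. The skeletal muscle sum was 806 to 2699.7 and 22.4 to 408, and the part of these sums in the result was not tested. On chow at 6 weeks none was called by limma, with 0.12% of all genes called, and 3 members had an unadjusted p under 0.05.

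Western diet against chow, 22 weeks: the diet went with lower elastic fibre genes in EKO/hA-I and with higher Lox and Fbn1 in EKO. In EKO/hA-I, 9 of the 10 fell, Fbln1 being the exception (-0.71 ± 0.41, adjusted p = 0.18, limma), with a background of 17.5% of all genes lower and called. Mfap4 averaged 170.5 ± 105 (SD, n = 3) on WD against 716 ± 148 (SD, n = 3) on chow (-2.21 ± 0.48, adjusted p = 0.0017). Eln averaged 1339.9 ± 484 (SD, n = 3) against 6081 ± 3792 (SD, n = 3) (-2.01 ± 0.55, adjusted p = 0.0068). Fbln5 averaged 204 ± 72.2 (SD, n = 3) against 685 ± 143 (SD, n = 3) (-1.79 ± 0.36, adjusted p = 0.001). For 8 of 10 every WD library was below every chow library, against 23.3% of all genes. Markers of other tissue moved with these groups: 7 of 8 contractile smooth muscle genes fell (summed signal 3998 to 9633 on WD, 21369.6 to 32969 on chow), 4 of 6 brown adipocyte genes rose (5474 to 7008 and 1527 to 1882), and 6 of 6 skeletal muscle genes rose (806 to 2699.7 and 9.65 to 37.1). With terms for brown adipocytes and skeletal muscle no member was called and Eln and Emilin1 changed sign (Eln 0.09 ± 0.68, Mfap4 -0.48 ± 0.59). Of the calls, that of Eln ended without chow replicate 1 (adjusted p = 0.0501), that of Fbn1 ended without WD replicate 2 (adjusted p = 0.058), that of Emilin1 ended without chow replicates 1 or 3 or WD replicate 2 (adjusted p up to 0.11), that of Lox ended without WD replicate 2 (adjusted p = 0.068), that of Loxl1 ended without chow replicate 1 (adjusted p = 0.059) and that of Adamtsl2 ended without WD replicate 2 (adjusted p = 0.089). Per 1000 of the contractile sum, Eln was 189 to 248 on WD and 110.2 to 309 on chow, and Mfap4 21.7 to 30.04 and 21.7 to 26.9, the diets overlapping for both.

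In EKO at 22 weeks Lox averaged 293 ± 39.6 (SD, n = 3) on WD against 84.9 ± 15.5 (SD, n = 3) on chow (1.78 ± 0.40, adjusted p = 0.0021, limma). Fbn1 averaged 455 ± 59.9 (SD, n = 3) against 209.6 ± 24.7 (SD, n = 3) (1.11 ± 0.36, adjusted p = 0.03), in a background of 13.9% of all genes higher and called. Lox passed in all 6 fits that left out 1 library and Fbn1 only without WD replicate 2 (up to an adjusted p of 0.11 in the others). Eln was 1.48 ± 0.55, adjusted p = 0.062, and Mfap4 -0.55 ± 0.48, adjusted p = 0.46. With the brown adipocyte and skeletal muscle terms Lox was still called (1.47, adjusted p = 0.0059) and Fbn1 no longer (0.84 ± 0.33), and Mfap5 (-0.72, adjusted p = 0.018) and Mfap4 (-1.05, adjusted p = 0.0498) were lower.

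No diet effect passed for any member in the other 4 comparisons. In WT none was called by limma at 6 weeks (1 at an unadjusted p under 0.05, 1.43% of all genes called) or at 22 weeks (1, 1.36%). At 6 weeks the same held in EKO (1, 0.0848%) and in EKO/hA-I (1, 0.00706%). The single gene under an unadjusted 0.05 was Mfap5 in WT at 6 weeks, Fbln1 in WT at 22 weeks, Mfap5 in EKO and Adamtsl2 in EKO/hA-I, named after their values were seen.

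From 6 to 22 weeks on diet, which is also a difference of age, Mfap4 fell in EKO on both diets. On chow Fbn1 (-1.26 ± 0.36, adjusted p = 0.012, limma), Lox (-1.39 ± 0.40, adjusted p = 0.013), Mfap4 (-1.35 ± 0.48, adjusted p = 0.04) and Mfap5 (-1.09 ± 0.30, adjusted p = 0.01) fell, in a background of 13.7% of all genes lower and called. Of the 10, 8 lay apart and lower against 21.5%. Adamtsl2 (-1.42 ± 0.48) was known from these 6-week libraries, so its difference is a description with no test, and it is left out of the calls named here. The brown adipocyte sum was 3801 to 6935 at 22 weeks and 1419 to 1861 at 6, and no member was called with the 2 tissue terms or without EKO chow 6 weeks replicate 3. Without EKO chow 6 weeks replicate 2 Mfap5 alone was called, and of the other calls that of Mfap4 ended without 6-week replicates 2 or 3 or 22-week replicates 1, 2 or 3 (adjusted p up to 0.13). Without the 2 libraries of high nerve genes the differences were -1.68 for Fbn1, -1.93 for Lox, -1.58 for Mfap4 and -1.30 for Mfap5.

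On WD, Adamtsl2 averaged 11.8 ± 6.35 (SD, n = 3) at 22 weeks against 47.97 ± 17.4 (SD, n = 3) at 6 (-2.01 ± 0.48, adjusted p = 0.0045, limma). Mfap4 averaged 211 ± 79.7 (SD, n = 3) against 581 ± 214 (SD, n = 3) (-1.45 ± 0.48, adjusted p = 0.044). Both fell, in a background of 2.97% of all genes lower and called. With the replicate number as a block Mfap5 was called too (-0.83, adjusted p = 0.046). Eln (0.88 ± 0.55, adjusted p = 0.34) and Lox (0.99 ± 0.40, adjusted p = 0.1) did not pass. Adamtsl2 stayed called in each of the 6 fits that left out 1 library, while the Mfap4 call ended in 4 of them, without 6-week replicates 1 and 3 and 22-week replicates 1 and 2 (adjusted p up to 0.16). The contractile sum was 5830.1 to 9856 at 22 weeks and 12220.5 to 26486 at 6, and Adamtsl2 per 1000 of the fibroblast sum 1.38 to 4.95 and 14.5 to 19.8.

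In WT on WD, Fbln1 rose from 66.5, 72.96 and 111 to 268, 236 and 148 (1.36 ± 0.41, adjusted p = 0.046, limma; 3.21% of all genes higher and called). All 10 differences were positive and 9 of 10 lay apart and higher, against 16.1% of all genes. The Fbln1 call ended in 5 of the 6 fits that left out 1 library, all but that without 22-week replicate 3 (adjusted p up to 0.18). The fibroblast sum was 3138, 2819.6 and 2112 at 22 weeks and 1077, 1095 and 1500.4 at 6, apart in the same direction as Fbln1, and that part in the result was not tested. The brown adipocyte sum was 2768 to 4934 and 6537 to 13591, and no member was called with the tissue terms. In WT on chow none was called by limma, with 0.12% of all genes called, and 3 members had an unadjusted p under 0.05. Lox was 1.29 ± 0.40, adjusted p = 0.18 and Eln 1.33 ± 0.55, adjusted p = 0.35. With the tissue terms both were called (Eln 2.13, adjusted p = 0.0056, Lox 1.70, adjusted p = 0.0076). In EKO/hA-I none was called on chow or on WD, where 0.00706% and 0.0706% of all genes were called. On chow 4 members had an unadjusted p under 0.05. On WD all 10 had, with negative differences, and 7 of 10 lay apart and lower against 13.9% of all genes. The share of all genes with an unadjusted p under 0.05 is not given for either.

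The effect of losing Apoe differed between 6 and 22 weeks of WD for 4 members, by interaction terms in the same fit. On WD the EKO against WT difference was lower at 22 than at 6 weeks for Adamtsl2 (-2.59 ± 0.68, adjusted p = 0.016, limma), Fbln1 (-2.41 ± 0.58, adjusted p = 0.0096), Mfap4 (-2.30 ± 0.68, adjusted p = 0.034) and Mfap5 (-1.36 ± 0.43, adjusted p = 0.046), in a background of 2.77% of all genes. On chow the same difference of differences was -2.68 ± 0.56 for Lox, -2.66 ± 0.68 for Adamtsl2 and -2.49 ± 0.78 for Eln. Without the 2 libraries of high nerve genes it was -3.22 for Lox, -2.90 for Adamtsl2 and -3.00 for Eln. This term contains the comparison known beforehand, so it is a description; 7.76% of all genes were lower and called in it, and 3 of 10 members, from which nothing is read. Eln on WD gave 0.18 ± 0.78, adjusted p = 0.93, its EKO against WT differences being 0.93 at 6 and 1.11 at 22 weeks. Of 12 fits that each left out 1 library, 8 ended the call on WD of Mfap4 (adjusted p up to 0.12), 9 that of Mfap5 (up to 0.14) and 1 that of Adamtsl2 (EKO WD 22 weeks replicate 1, 0.054). Lox alone differed between the diets at 22 weeks (1.84 ± 0.56, adjusted p = 0.049; 4.99% of all genes higher and called), a call that ended in 10 of 12 such fits (adjusted p up to 0.12). The diet term at 6 weeks also contains the comparison known beforehand, so it is a description and nothing is read from it for the members. Of all genes 0% were called in it.

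The effect of human apoA-I depended on diet at 22 weeks. Lox (-3.18 ± 0.56, adjusted p = 3.2e-04, limma), Fbln5 (-2.54 ± 0.51, adjusted p = 7.8e-04), Fbn1 (-2.44 ± 0.50, adjusted p = 9.9e-04), Eln (-3.49 ± 0.78, adjusted p = 0.0018), Emilin1 (-1.82 ± 0.56, adjusted p = 0.014) and Mfap5 (-1.24 ± 0.43, adjusted p = 0.027) had a lower EKO/hA-I against EKO difference on WD than on chow, in a background of 18.6% of all genes. Eln, Lox, Fbn1 and Fbln5 stayed called in all 12 fits that left out 1 library; the call of Emilin1 ended without EKO/hA-I WD replicate 2 (adjusted p = 0.051) and that of Mfap5 in 5 of the fits (up to 0.09). None of the 6 was called with the brown adipocyte and skeletal muscle terms, and Emilin1 and Mfap5 then changed sign. Between 6 and 22 weeks on WD, Lox alone differed (-1.95 ± 0.56, adjusted p = 0.04; 4.51% of all genes lower and called), and that call ended in 8 of 12 fits (adjusted p up to 0.12).

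Other genes of the fibre and of its turnover are given as counts from lists drawn up with earlier results known. Of 22 further elastic fibre genes, 5 rose and 1 fell in EKO over WT after 22 weeks of WD, a share near the 22% of all genes called in either direction (median 0.11, all genes -0.01). Ltbp2, a latent TGF-beta binding protein of microfibrils, was 729 ± 99.3 against 122 ± 22.7 (2.58 ± 0.36, adjusted p = 5.0e-06, limma). Loxl2, another lysyl oxidase, was higher by 1.64 ± 0.26, adjusted p = 3.0e-05, Emilin2 1.63 ± 0.29, adjusted p = 1.4e-04 and Fbln2 1.24 ± 0.29, adjusted p = 0.0028. With human apoA-I on WD at 22 weeks 7 of 22 fell, against 12.9% of all genes, among them Ltbp2 (-2.38 ± 0.36, adjusted p = 3.0e-05) and Loxl2 (-1.80 ± 0.26, adjusted p = 1.6e-05). In EKO/hA-I on WD against chow at 22 weeks 15 of 22 fell (median -1.02), against 17.5% of all genes, those of smallest p being the protease Adamts6 (-1.47 ± 0.22, adjusted p = 1.9e-04) and the lysyl oxidase Loxl4 (-1.22 ± 0.22, adjusted p = 6.2e-04).

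Enzymes that can cut elastin or its scaffold rose in EKO on WD at 22 weeks. Of 8 such proteases 7 rose over WT (22% of all genes called in either direction), among them Mmp12, the macrophage elastase (6.79 ± 0.81, adjusted p = 4.1e-07, limma), and the cathepsins Ctsl (3.47 ± 0.24, adjusted p = 1.9e-10), Ctsb (2.53 ± 0.20, adjusted p = 5.8e-10) and Ctss (5.32 ± 0.55, adjusted p = 4.1e-08). The summed protease signal was 15516, 11677 and 19751 in EKO and 2297, 2161 and 1849.7 in WT. With human apoA-I 7 of 8 fell, against 12.9% of all genes, among them Ctsl (-3.43 ± 0.24, adjusted p = 5.6e-10) and Ctsb (-1.97 ± 0.20, adjusted p = 9.2e-08). All 8 macrophage genes rose and fell in the same 2 comparisons. Among 6 protease inhibitors, Timp1 (3.71 ± 0.50, adjusted p = 2.3e-06) and Serpina3n (3.79 ± 0.53, adjusted p = 4.1e-06) rose in EKO. The 3 genes of the elastin receptor complex, which binds elastin fragments and is also lysosomal, rose in EKO (3 of 3, against 22% of all genes called in either direction). With human apoA-I they fell (3 of 3, against 12.9%). The fall of Glb1 was not particular to WD at 22 weeks. It was also lower with human apoA-I on chow at 6 weeks (-1.08 ± 0.21, adjusted p = 0.026, limma), WD at 6 weeks (-1.01 ± 0.18, adjusted p = 0.02) and chow at 22 weeks (-0.79 ± 0.18, adjusted p = 0.0034). Neu1 and Ctsa were not called there.

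Of 12 genes of TGF-beta signalling 2 rose in EKO over WT after 22 weeks of WD, no more than the 22% of all genes called in either direction: the ligand Tgfb1 (1.92 ± 0.23, adjusted p = 3.0e-07, limma) and the receptor Tgfbr2 (0.54 ± 0.18, adjusted p = 0.033). With human apoA-I 8 of 12 fell, against 12.9% of all genes, the smallest p being those of the receptor Tgfbr1 (-1.39 ± 0.22, adjusted p = 4.8e-05) and the ligand Tgfb2 (-2.20 ± 0.35, adjusted p = 5.6e-05). In EKO/hA-I on WD against chow at 22 weeks 8 of 12 fell, against 17.5% of all genes, the comparison in which 9 of the 10 elastic fibre genes did.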

How the data were processed

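Total RNA sequencing of 35 mouse aortas was used, grouped by title. The authors deposited 1 table of normalised signal per gene and library, never negative and not counts; per the submitters' processing notes Bowtie 0.12.2, Bowtie2 and RSEM and the builds mm8 and mm9 were used, with no role given, and the kind of normalisation is not given in the sources used here. Genes carry symbols only, so no positions are given for them. Whole reads could not be recovered (71.6 to 82.1% of low values lay within 0.02 of a whole read), so count tests were not used. Nothing says whether reads were assigned by strand or how reads of similar genes were split.

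Tests used limma 3.58.1 in R 4.3.3 (trend, robust) on log2(value + 1), 1 fit of 12 groups with no covariate, on the 14157 genes that reached 1 in 3 or more libraries (17 of 14174 removed), two-sided, with Benjamini-Hochberg adjustment over all genes within each of 24 comparisons and 6 interactions and a threshold of 0.05. The code was tested on simulated data. Each library is taken as 1 animal, as the labels' protocol implies; p-values measure the spread between libraries. A log2(value + 1) difference understates the change of genes of low signal.

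The members and lists were chosen with earlier results of these data known. All 10 members are named; of other lists, counts and up to 4 genes of smallest adjusted p in a comparison; and the 5 genes most like Eln and Adamtsl2. Alternatives were pseudocounts of 0.1 and 5, no filter, only the groups compared, the replicate number as a block, each library left out, median-ratio rescaling, terms for brown adipocyte and skeletal muscle genes, a term for the 12 libraries without Y-linked transcripts (0 to 2 a group), and, added after seeing the data, omission of the 2 libraries of highest nerve genes. Replicate numbers come from the titles. Deviations of same-numbered libraries correlated above 0.1 in every one of 3 pairs in EKO on WD (0.12 to 0.44) and WT on WD (0.13 to 0.34) between 22 and 6 weeks, and in no other comparison of 3 pairs. The numbers are not taken to pair the libraries, and replicate 1 lacked Y-linked transcripts in both groups of each.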

Additional observations from a re-analysis of the deposited data

Results flagged for a closer look

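Effects of the same contrast differed between times or diets, by an interaction term of limma over all genes, in 15 results. The EKO against WT difference was lower at 22 than at 6 weeks on chow for Eln (-2.49), Lox (-2.68) and Adamtsl2 (-2.66). These 3 contain the EKO and WT values on chow at 6 weeks that were known when the genes were chosen, and are descriptions. On WD it was lower at the later time for Fbln1 (-2.41), Mfap4 (-2.30), Mfap5 (-1.36) and Adamtsl2 (-2.59). It was higher on WD than on chow at 22 weeks for Lox (1.84). The EKO/hA-I against EKO difference was lower at 22 than at 6 weeks on WD for Lox (-1.95), and lower on WD than on chow at 22 weeks for Eln (-3.49), Fbn1 (-2.44), Fbln5 (-2.54), Emilin1 (-1.82), Mfap5 (-1.24) and Lox (-3.18). All values are differences of log2(value + 1). The EKO WD 22 weeks libraries enter 12 of these terms and had the highest macrophage sums of all groups, whose part in them was not tested.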

How the results depend on the processing

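The number of members called moved by over 1.5 times under some settings, with the main number in brackets. Adamtsl2 is counted in 22 over 6 weeks (EKO, chow), in EKO over WT (chow, 6 weeks) and in the latter's time interaction. Its EKO level on chow at 6 weeks was known beforehand, so these numbers are descriptions. With terms for brown adipocytes and skeletal muscle it was 0 in EKO/hA-I over EKO (chow, 22 weeks) (4), EKO/hA-I over EKO (WD, 22 weeks) (4), EKO/hA-I over WT (chow, 22 weeks) (4), EKO/hA-I over WT (WD, 22 weeks) (1), WD over chow (EKO/hA-I, 22 weeks) (9), 22 over 6 weeks (WT, WD) (1), 22 over 6 weeks (EKO, chow) (5), the time interaction of EKO/hA-I against EKO on WD (1) and the diet interaction of EKO/hA-I against EKO at 22 weeks (6). It was 1 in EKO/hA-I over WT (WD, 6 weeks) (3). It was 2 in EKO over WT (WD, 22 weeks) (0), 22 over 6 weeks (WT, chow) (0) and the diet interaction of EKO against WT at 22 weeks (1). It was 5 in 22 over 6 weeks (EKO, WD) (2) and the time interaction of EKO against WT on chow (3). In fits of the groups compared alone it was 0 in EKO over WT (chow, 22 weeks) (1), EKO over WT (WD, 6 weeks) (3), EKO/hA-I over WT (chow, 22 weeks) (4), 22 over 6 weeks (WT, WD) (1), the time interaction of EKO against WT on chow (3) and the time interaction of EKO/hA-I against EKO on WD (1). It was 1 in EKO over WT (chow, 6 weeks) (3). It was 4 in EKO over WT (WD, 22 weeks) (0), WD over chow (EKO, 22 weeks) (2) and 22 over 6 weeks (EKO, WD) (2). It was 7 in EKO/hA-I over EKO (chow, 22 weeks) (4). With the replicate number as a block, where the libraries share only a number, it was 1 in EKO over WT (WD, 22 weeks) (0). It was 2 in EKO/hA-I over WT (WD, 22 weeks) (1). It was 5 in EKO over WT (WD, 6 weeks) (3) and EKO/hA-I over WT (WD, 6 weeks) (3). Median-ratio rescaling gave 0 in the diet interaction of EKO against WT at 22 weeks (1), 2 in EKO/hA-I over WT (WD, 22 weeks) (1), 5 in EKO/hA-I over WT (WD, 6 weeks) (3). A pseudocount of 0.1 gave 0 in the diet interaction of EKO against WT at 22 weeks (1), and so did the term for libraries without Y-linked transcripts (0). The omission of the 2 libraries of high nerve genes gave 6 in EKO over WT (chow, 6 weeks) (3). No filter and a pseudocount of 5 moved none of the 30 numbers by that much. Leaving out each library in turn gave 1 to 6 in EKO over WT (chow, 6 weeks), 0 to 1 in EKO over WT (chow, 22 weeks), 0 to 4 in EKO over WT (WD, 6 weeks). It gave 2 to 5 in EKO/hA-I over EKO (chow, 22 weeks), 3 to 4 in EKO/hA-I over EKO (WD, 22 weeks), 1 to 7 in EKO/hA-I over WT (chow, 22 weeks). It gave 2 to 4 in EKO/hA-I over WT (WD, 6 weeks), 0 to 2 in EKO/hA-I over WT (WD, 22 weeks), 0 to 1 in WD over chow (WT, 22 weeks). It gave 1 to 2 in WD over chow (EKO, 22 weeks), 5 to 9 in WD over chow (EKO/hA-I, 22 weeks), 0 to 1 in 22 over 6 weeks (WT, WD). It gave 0 to 7 in 22 over 6 weeks (EKO, chow), 1 to 2 in 22 over 6 weeks (EKO, WD), 0 to 2 in 22 over 6 weeks (EKO/hA-I, WD). It gave 2 to 7 in the time interaction of EKO against WT on chow, 2 to 4 in the time interaction of EKO against WT on WD, 0 to 2 in the diet interaction of EKO against WT at 22 weeks. It gave 0 to 1 in the time interaction of EKO/hA-I against EKO on WD, 4 to 7 in the diet interaction of EKO/hA-I against EKO at 22 weeks, and 0 in the other 10 of the 30. The called results include those of EKO over WT (chow, 6 weeks), its time interaction and Adamtsl2 in 22 over 6 weeks (EKO, chow). Those are descriptions, and so are the tallies that hold them. Of 57 called results 21 were kept in every omission of a single library, 57 with the block, 39 in groups alone and 17 with the tissue terms. The last ended 36 and reversed 4. In WD against chow in EKO/hA-I at 22 weeks Eln was 0.0858 and Emilin1 0.247, and in the diet interaction of EKO/hA-I against EKO Emilin1 was 0.0872 and Mfap5 0.343. In the 2 comparisons of 22 with 6 weeks on WD where deviations of same-numbered libraries correlated in every pair, the block added Mfap5 in EKO and changed no call in WT. That the libraries were paired is not known. Where an omission left 1 library of EKO/hA-I on chow at 6 weeks, it is assumed to vary like the other groups. The cause of these changes was not tested. With 2 or 3 libraries a group, differences near a log2 of 1 often missed the threshold, and a missed threshold does not show that levels were alike.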
